A study of Mus musculus with 4 samples.

Results

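The 10 genes described here act on the brakes of the cell cycle and were followed in lung endothelial cells (ECs) after removal of the left lung. They were picked by symbol. They comprise the CIP/KIP inhibitors Cdkn1a and Cdkn1b, the INK4 inhibitors Cdkn2a, Cdkn2b, Cdkn2c and Cdkn2d, the p53 gene Trp53 with its antagonist Mdm2, and the pocket protein genes Rb1 and Rbl1. All 10 were among the 24063 gene symbols of the tables, and all 10 were among the 16208 genes tested. Lung ECs were selected with CD31 antibody and magnetic beads from C57BL6 mice (C57BL6J in the study's methods) of 8 weeks, either 7 days after left pneumonectomy (PNX) or after a sham operation in which the chest was opened and the lung was left in place. The study's methods state that the isolated ECs were checked by flow cytometry for CD31, VE-cadherin and the absence of CD45. Each group had 2 libraries of polyadenylated RNA, and each library pooled the cells of 2 mice, so the p-values measure the spread between pools. The mice carried no transgene, meloxicam was the analgesic after surgery, and the design has no unoperated mice.

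The cell cycle is driven by cyclins bound to their kinases (CDKs). INK4 proteins bind the kinases CDK4 and CDK6 and keep them from D-type cyclins, while CIP/KIP proteins bind whole cyclin-CDK complexes. Active CDKs phosphorylate the pocket proteins, which otherwise hold E2F transcription factors on the promoters of S-phase genes. The p53 protein switches on Cdkn1a and Mdm2 after DNA damage, and Mdm2 marks p53 for destruction, which closes a feedback loop. Resting lung ECs rarely divide, and growth of the remaining lung after PNX is known to involve their proliferation.

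The libraries held 41367438 to 50952879 counts with 1 transcript, the most counted, standing for each gene. Values are normalized counts, which are counts divided by the effective library size (total times TMM factor) and multiplied by the mean of that size. Libraries of a group were close to each other, with a mean chi-square per gene of 1.52 to 1.76 within groups against 118 to 133 between them. Counting error alone gives about 1 for a pair of libraries. The spread behind the p-values was thus not far above counting error, and variation between single mice was not measured. The animals were recorded as male, yet not 1 read was counted for any of 44 genes on chromosome Y, and Xist, which is expressed from the inactive X chromosome, had 31872 to 33792 normalized counts. The libraries of both groups go against that label in the same way. The endothelial marker Pecam1, which encodes CD31, had 90776 and 91116 normalized counts in sham ECs and 90191 and 90608 in post-PNX ECs (log2 fold change -0.01, standard error 0.015, adjusted p = 0.636 in the edgeR fit).

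A gene is said here to have risen or fallen when its adjusted p was under 0.01 in edgeR's quasi-likelihood fit of post-PNX against sham ECs, with Benjamini-Hochberg adjustment over all genes tested. Of the 10 genes 9 passed, 5 higher and 4 lower after PNX. The same rule was passed by 57.1% of all genes tested (29.3% higher and 27.8% lower), so that passing it is common in these libraries. Those shares stand for 4745 higher and 4513 lower genes, and when the libraries were scaled to 12 endothelial marker genes they became 9625 and 1408, with the median of all genes moved by 0.26 on the log2 scale. With a log2 fold change beyond 1 as well, the thresholds of the study's methods, 1 of the 10 genes was higher (background 5.9%) and 0 were lower (background 1.66%). The gene past both thresholds was Cdkn2c. The median log2 fold change of the 10 genes was 0.18, against 0.00 over all genes tested. The groups did not overlap in any of the 10 genes, which was also true of 81.2% of the genes tested.

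**Figure D1:**
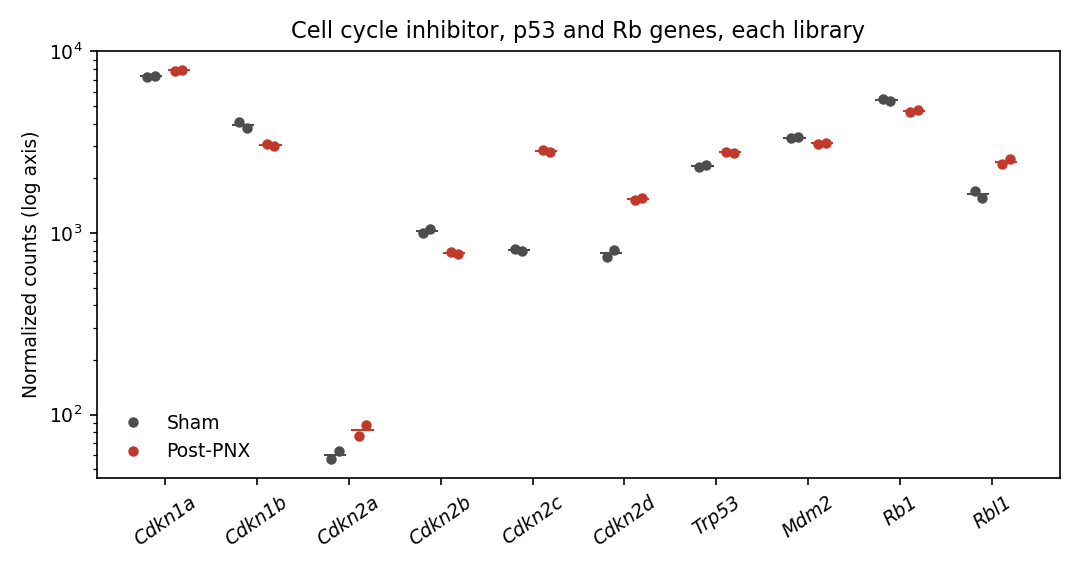
Normalized counts (log axis) of the 10 genes in the 2 sham libraries (grey) and the 2 post-PNX libraries (red), each point 1 library and each line the mean of a group. Cdkn2c and Cdkn2d show the widest gaps between the groups, while those of Cdkn1a and Mdm2 are the narrowest.

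Per length of transcript, Cdkn1a had the highest level of the 10 genes in both groups. Its deposited FPKM (fragments scaled to the length of the transcript and to the size of the library) was 51.6 and 52.4 in sham ECs and 56.1 and 56.3 in post-PNX ECs. In sham ECs Cdkn1b followed with a mean FPKM of 22.2, then Trp53 (17.0), Rb1 (15.9), Mdm2 (14.7), Cdkn2b (9.97), Cdkn2d (8.28), Cdkn2c (5.37), Rbl1 (4.55) and Cdkn2a (0.879). After PNX the order of mean FPKM was Cdkn1a (56.2), Trp53 (20.4), Cdkn2c (18.9), Cdkn1b (17.4), Cdkn2d (16.6), Rb1 (13.9), Mdm2 (13.7), Cdkn2b (7.61), Rbl1 (6.92) and Cdkn2a (1.21). Cdkn2c thus moved from the eighth place to the third, and Cdkn1b from the second to the fourth. Those places of Cdkn2c are for its most counted transcript. Its other transcript had an FPKM of 8.70 and 8.24 in sham ECs and of 23.7 and 22.8 after PNX, the latter above Trp53. No neighbours in either order overlapped between libraries. After PNX, however, the gap between the nearest libraries of Cdkn1b and Cdkn2d (17.2 and 16.8), of Rb1 and Mdm2 (both 13.8) and of Cdkn2b and Rbl1 (7.47 and 7.11) was smaller than the spread within 1 gene of each pair. These FPKM ranks depend on the transcript that represents a gene, belong to the CD31-selected fraction as a whole and were not tested.

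Of the CIP/KIP inhibitors, Cdkn1a rose by a small margin, which was larger under the endothelial scaling, and Cdkn1b fell. Cdkn1a, which encodes p21, the inhibitor best known as a p53 target, lies on chromosome 17 from 29090979 to 29100722. It had 7253 and 7365 normalized counts in sham ECs and 7837 and 7886 in post-PNX ECs. Both post-PNX libraries were above both sham libraries, by a margin of 7.57% in the fitted change (log2 fold change 0.11, standard error 0.023, adjusted p = 7.1e-05 in the edgeR fit). Under the endothelial scaling the log2 fold change of Cdkn1a was 0.37 (adjusted p = 2.4e-15). Cdkn1b, which encodes p27, the inhibitor that accumulates in resting cells, lies on chromosome 6 from 134920401 to 134925525. It had 4108 and 3767 normalized counts in sham ECs and 3093 and 3031 after PNX. All of the post-PNX values were lower, and expression fell to 77.7% of the sham level (log2 fold change -0.36, standard error 0.032, adjusted p = 2.2e-15 in the edgeR fit). Under the endothelial scaling the log2 fold change of Cdkn1b was -0.10 (adjusted p = 0.0102 in the edgeR fit), just short of the threshold. Cdkn1c, the third gene of the family, which encodes p57, did not pass, with 881 and 901 normalized counts in sham ECs and 957 and 987 after PNX (log2 fold change 0.12, adjusted p = 0.032). It did pass under the endothelial scaling (log2 fold change 0.39, adjusted p = 5.9e-08).

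The INK4 genes went different ways. Cdkn2c rose 3.50-fold and Cdkn2d 2.00-fold, whereas Cdkn2b fell to 76.1% of its sham level and Cdkn2a did not pass the test. Cdkn2c encodes p18 and lies on chromosome 4 from 109660876 to 109666756. It had 817 and 795 normalized counts in sham ECs and 2848 and 2794 in post-PNX ECs. The libraries of a group differed by far less than the groups did (log2 fold change 1.81, standard error 0.042, adjusted p = 8.8e-44 in the edgeR fit). Cdkn2d, which encodes p19, the INK4 protein of that name and not the product of the Arf reading frame, lies on chromosome 9 from 21288459 to 21291421. It had 741 and 807 normalized counts in sham ECs and 1524 and 1568 after PNX. The groups were clearly apart (log2 fold change 0.9996, standard error 0.050, adjusted p = 1.1e-26 in the edgeR fit), and the change lay just under the fold threshold. Cdkn2d crossed that threshold when only library size was used for scaling, with the endothelial scaling (log2 fold change 1.26), with a filter at a mean of 50 counts, or without the second sham or the first post-PNX library (1.06 and 1.02).

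Cdkn2b, which encodes p15, an inhibitor known to be induced by TGF-beta, lies on chromosome 4 from 89306289 to 89311032. Its normalized counts were 998 and 1046 in sham ECs and 790 and 762 in post-PNX ECs. The decrease was larger than the spread between libraries (log2 fold change -0.39, standard error 0.054, adjusted p = 3.1e-09 in the edgeR fit). Under the endothelial scaling it was -0.13 and no longer passed (adjusted p = 0.0244). Cdkn2a, its neighbour on chromosome 4 from 89274473 to 89294619, encodes p16 and, in another reading frame from a separate first exon, the Arf protein that restrains Mdm2. It was the least abundant of the 10 genes, with 63 and 62 sham counts and 78 and 79 post-PNX counts. In normalized counts these were 57.1 and 63.2 against 76.6 and 88.0, which did not overlap but did not pass the test (log2 fold change 0.45, standard error 0.18, adjusted p = 0.0271 in the edgeR fit). It passed under the endothelial scaling (log2 fold change 0.71, adjusted p = 0.00072). The p16 and Arf transcripts could not be separated, since they share exons and a read there was counted for both. The p16 transcript had 55 and 56 counts in sham ECs and 69 in each post-PNX library, close to those of the Arf transcript given above.

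Cdkn2c has 2 transcripts with separate starts and the same coding sequence of 504 bases, and their counts rose by different folds. The upstream-start transcript is 2038 bases long, of which 1147 lie in a first exon of its own, and the downstream-start transcript is 1106 bases long, of which 215 are its own. They share the other 891 bases, and a read on these was counted for both. The downstream-start transcript had 782 and 658 counts in sham ECs and 1946 and 1656 in post-PNX ECs, and the upstream-start transcript had 902 and 780 against 2898 and 2508. Since reads in the shared part cancel, the difference between the counts is the number of reads in the upstream first exon alone less those in the 215 bases alone, and so is a lower limit for the former. This difference came to 120 and 122 reads for sham ECs and to 952 and 852 reads for post-PNX ECs. It made up 13.3% and 15.6% of the upstream-start count in sham ECs and 32.9% and 34.0% after PNX, so the groups were well apart. After normalization the count of the upstream-start transcript was 3.50-fold higher after PNX and that of the downstream-start transcript 2.72-fold. The sum over both transcripts gave Cdkn2c a log2 fold change of 1.65. No test of transcript use was made, and the tables do not show how many molecules of each kind were present.

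**Figure D2:**
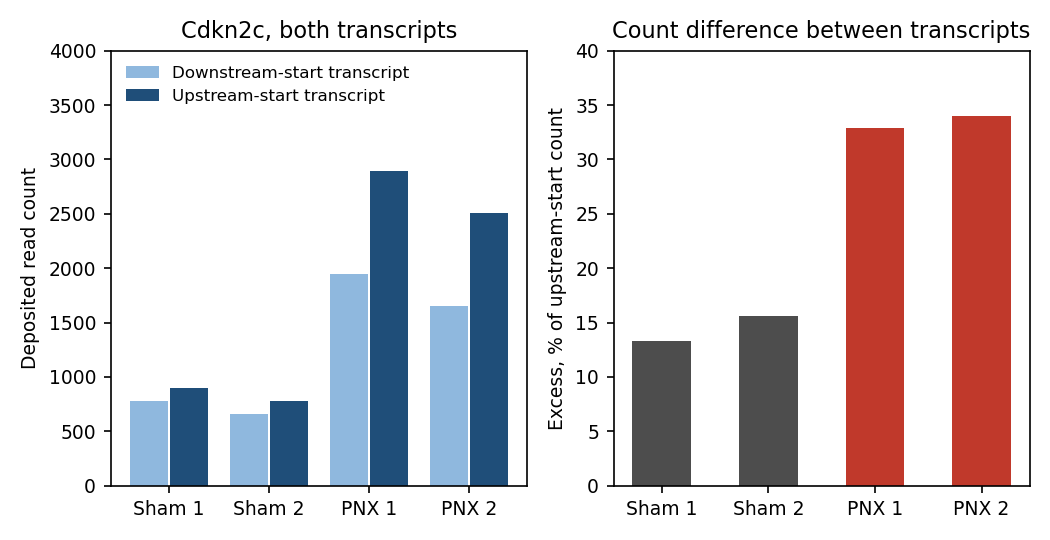
Left, deposited read counts of the downstream-start (light) and upstream-start (dark) transcripts of Cdkn2c in each library. Right, the difference between them as a percentage of the upstream-start count, 13.3% and 15.6% in sham libraries (grey) and 32.9% and 34.0% in post-PNX libraries (red).

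For the other genes the tables say little of single transcripts. The shorter transcript of Rbl1 had 43.4% and 43.6% of the counts of the longer one in sham ECs and 42.7% and 44.2% after PNX. For Cdkn1a, Trp53 and Mdm2 the second transcript had at least 99.1% of the counts of the first in every library, so that nearly all their reads were shared and the transcripts cannot be told apart. Cdkn1b, Cdkn2b, Cdkn2d and Rb1 had a single transcript in the tables.

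The 250 bases before both starts of Cdkn2c are shown because the counts of the transcripts from these starts rose by different folds. They precede the starts of the RefSeq annotation of GRCm38.p6, the assembly also named mm10, and are written 5′ to 3′ on the strand of the gene. GENCODE, another annotation, extends the first exon of the upstream-start transcript to 109667189, so the upstream window lies inside that exon. The window before the upstream start is rich in G and C (77.2%) and that before the downstream start is not (42.8%). Neither holds any of the words searched for, which were the E2F words TTTCCCGC, TTTCGCGC, TTTGCCGC and TTTGGCGC, the cell cycle homology (CHR) word TTTGAA, the NF-Y word CCAAT, each on both strands, and the p53 decamer, the 10-base unit of p53 response elements.
Cdkn2c, before the upstream start, chr4:109666757-109667006, minus strand: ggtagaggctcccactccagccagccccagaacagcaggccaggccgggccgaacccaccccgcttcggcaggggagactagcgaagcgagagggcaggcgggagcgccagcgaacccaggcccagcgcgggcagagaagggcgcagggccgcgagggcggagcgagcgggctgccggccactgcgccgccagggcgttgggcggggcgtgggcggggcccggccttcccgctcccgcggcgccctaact
Cdkn2c, before the downstream start, chr4:109665373-109665622, minus strand: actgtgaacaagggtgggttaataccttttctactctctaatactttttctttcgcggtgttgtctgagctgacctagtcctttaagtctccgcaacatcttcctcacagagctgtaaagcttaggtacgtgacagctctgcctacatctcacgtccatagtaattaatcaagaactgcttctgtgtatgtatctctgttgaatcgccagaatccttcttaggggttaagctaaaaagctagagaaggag

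Windows of this kind were found for 9 of the 10 genes, 12 windows in all, and for Rb1 none was at hand. An E2F word stood in 2 of the 12, against 1.86% of the 32851 windows of all genes. One was that of Rbl1, where it lies from 18 to 11 bases before the start, and the other that before the Arf start of Cdkn2a. The p53 decamer stood in 4 of the 12 windows against 7.13% of all, and these were the windows of Trp53, Mdm2, Cdkn2d and the upstream start of Cdkn1a, where it occurs at 2 places. The window of Cdkn2d precedes a start inside the annotated gene, so that 212 of its 250 bases lie within the coordinates given above, as do 11 bases of that of Trp53. The NF-Y word was found in 4 windows (33.8% of all) and the CHR word in 1 (16.0% of all). The windows of Rbl1, which holds an E2F word, and of the p53 targets Mdm2 and Cdkn1a are shown with every match in capitals. In Rbl1 the capitals mark the E2F word, in Mdm2 first the p53 decamer and then the NF-Y word, and in Cdkn1a both p53 decamers. A match is only a run of letters, and binding was not measured.
Rbl1, chr2:157204535-157204784, minus strand: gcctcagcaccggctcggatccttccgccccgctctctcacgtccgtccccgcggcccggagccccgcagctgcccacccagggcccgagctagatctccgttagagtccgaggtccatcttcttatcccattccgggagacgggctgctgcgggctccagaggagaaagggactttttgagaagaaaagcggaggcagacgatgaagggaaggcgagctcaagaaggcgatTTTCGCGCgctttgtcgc
Mdm2, chr10:117710759-117711008, minus strand: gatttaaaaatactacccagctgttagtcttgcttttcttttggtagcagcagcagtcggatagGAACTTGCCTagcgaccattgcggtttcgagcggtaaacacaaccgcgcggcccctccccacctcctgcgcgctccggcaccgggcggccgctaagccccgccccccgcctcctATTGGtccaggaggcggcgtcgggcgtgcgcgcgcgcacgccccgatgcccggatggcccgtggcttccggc
Cdkn1a, before the upstream start, chr17:29090729-29090978, plus strand: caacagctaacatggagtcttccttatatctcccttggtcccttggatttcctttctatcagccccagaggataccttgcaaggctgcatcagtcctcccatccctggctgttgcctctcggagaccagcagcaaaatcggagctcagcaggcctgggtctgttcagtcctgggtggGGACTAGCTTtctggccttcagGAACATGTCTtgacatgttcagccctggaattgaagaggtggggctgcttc

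Trp53 rose, and Mdm2 had a small decrease that did not hold under all settings. Trp53, which encodes the transcription factor p53, lies on chromosome 11 from 69580348 to 69591873. Its normalized counts were 2316 and 2361 in sham ECs and 2805 and 2771 in post-PNX ECs. The libraries of a group lay close together, and the increase was 19.3% (log2 fold change 0.25, standard error 0.034, adjusted p = 1.3e-09 in the edgeR fit). Its log2 fold change was 0.52 under the endothelial scaling (adjusted p = 5.6e-15). Mdm2, the ubiquitin ligase that opposes p53, lies on chromosome 10 from 117688875 to 117710758. It had 3319 and 3372 normalized counts in sham ECs and 3099 and 3125 after PNX. The groups did not overlap, and the difference was small (log2 fold change -0.10, standard error 0.031, adjusted p = 0.0025 in the edgeR fit). The call was lost with DESeq2's Wald test (adjusted p = 0.0555) and without the first or second post-PNX or the second sham library (adjusted p = 0.0357, 0.0133 and 0.0210), and under the endothelial scaling the direction turned (log2 fold change 0.16, adjusted p = 3.9e-05). Mdm4, the relative of Mdm2 that masks the activating part of p53, fell from 3976 and 3936 normalized counts to 2994 and 3025 (log2 fold change -0.39, standard error 0.030, adjusted p = 3.9e-18 in the edgeR fit).

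Of the pocket protein genes Rbl1 rose and Rb1 fell, the latter not under the endothelial scaling. Rb1, the retinoblastoma gene, lies on chromosome 14 from 73192858 to 73325951. It had 5502 and 5316 normalized counts in sham ECs and 4667 and 4770 in post-PNX ECs. Both post-PNX values were lower (log2 fold change -0.20, standard error 0.027, adjusted p = 2.5e-09 in the edgeR fit), while under the endothelial scaling the direction turned and the threshold was not passed (log2 fold change 0.06, adjusted p = 0.0456). The protein-coding genes Rcbtb2 and Lpar6 overlap Rb1 on the opposite strand, as do a pseudogene with Rbl1 and an unconfirmed transcript with Cdkn1a, and whether strand was used in counting is not given in the sources used here. Rbl1, which encodes p107, a pocket protein that is itself an E2F target, lies on chromosome 2 from 157145893 to 157204534. It had 1709 and 1561 normalized counts in sham ECs and 2405 and 2544 after PNX. The rise was 1.51-fold (log2 fold change 0.59, standard error 0.040, adjusted p = 1.2e-20 in the edgeR fit). Rbl2, which encodes p130, the pocket protein most linked to rest, fell from 3750 and 3693 normalized counts to 3224 and 3135 (log2 fold change -0.23, standard error 0.030, adjusted p = 1.8e-09 in the edgeR fit), and under the endothelial scaling its log2 fold change was 0.03 (adjusted p = 0.328).

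**Figure D3:**
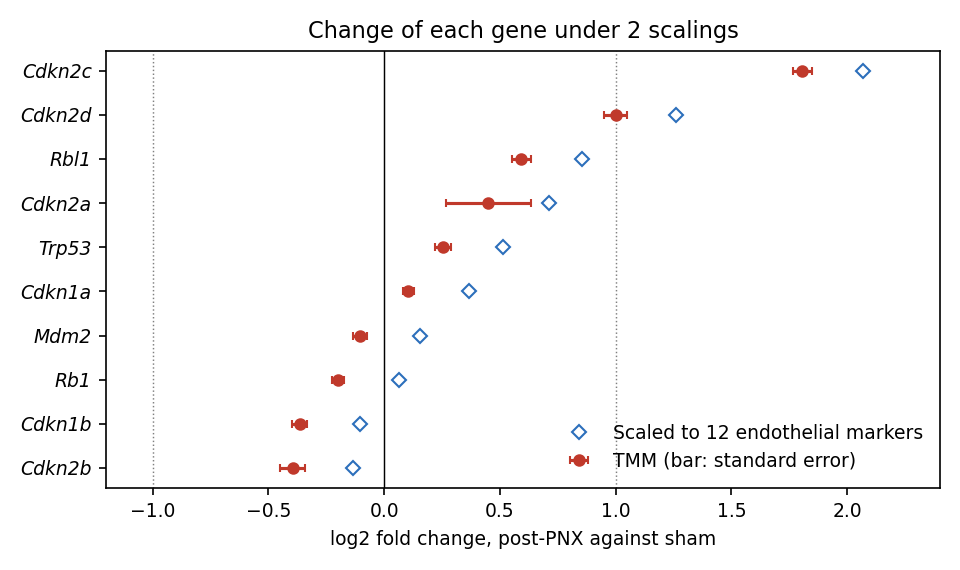
log2 fold change of each gene with its standard error under TMM scaling (red) and the value under scaling to 12 endothelial markers (blue diamonds), dotted lines at -1 and 1. Under the endothelial scaling all values lie further to the right, Mdm2 and Rb1 cross 0, and Cdkn2c remains the highest.

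The rise of Cdkn2c, Cdkn2d and Rbl1 was accompanied by that of the genes of division. All 14 proliferation markers rose, all of them past the fold threshold, with a median log2 fold change of 2.98. Their summed level went from 6283 and 6249.9 normalized counts in sham ECs to 39078 and 38514 in post-PNX ECs. Mki67, the common marker of cycling cells, rose from 1192 and 1243 to 9122 and 9129 normalized counts (log2 fold change 2.91). The gene whose 4 values were most like those of Cdkn2c, each centred on its own mean, was Mcm5, a subunit of the replicative helicase, at a Euclidean distance of 0.024 on the log2 scale. It had 794 and 757 normalized counts in sham ECs and 2769 and 2704 after PNX. Smpd3 (distance 0.043), which encodes a sphingomyelinase, and Ccr3 (0.049), which encodes a receptor for eotaxins on eosinophils, came next, out of 16198 genes compared over 4 libraries, 20 of which lay within a distance of 0.1. With 2 groups of 2, likeness amounts to a similar difference between groups.

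Markers of other cells in the CD31-selected fraction, for which sham ECs and post-PNX ECs stand throughout, were abundant and moved as well. As background to the numbers of markers that rose or fell, 29.3% of all genes tested rose and 27.8% fell. The epithelial marker Sftpc had 171272 and 170757 normalized counts in sham ECs and 111404 and 110651 after PNX. Cdh5, the highest of the endothelial markers, had 109837 and 110681 against 93964 and 95234. Of 8 macrophage markers 7 rose, with C1qb, C1qa and Emr1 in the lead (log2 fold changes 2.98, 2.82 and 1.22), and 1, Mertk, fell (-0.33). The 8 summed to 27447 and 27004 normalized counts in sham ECs and 51302 and 51256 after PNX. The 6 fibroblast markers summed to 47683 and 47694 in sham ECs and 164363 and 165244 after PNX, with 4 higher, led by Lum, Col1a1 and Dcn (4.26, 2.34 and 2.30), and 1 lower. Pdgfra was the lower 1 (log2 fold change -0.23), and Tcf21 did not pass (0.02). Col3a1 (18204 and 18262 against 88042 and 88445) and Col1a1 (9013 and 9186 against 45690 and 46174) had the highest post-PNX counts of this list. All 5 mesothelial markers rose, Wt1, Msln and Upk3b most (9721 and 9884 against 21116 and 21489). The 5 mural markers summed to 13393 and 13581 against 18284 and 18211, with 4 higher, Rgs5, Cspg4 and Acta2 most. The 4 markers of all leukocytes summed to 33061 and 33197 against 34120.1 and 34661, with Cd52 and Laptm5 higher and Coro1a lower. All 8 T and B cell markers fell (7059.8 and 7072 against 4041 and 3875, Cd8a, Cd4 and Cd79a most), as did all 6 epithelial markers (404439 and 406925 against 245932 and 242633, Scgb1a1, Sftpb and Sftpc most). Of the 12 endothelial markers 10 fell, Eng, Tek and Egfl7 most, and 1 rose, and the sum went from 551913 and 557598 to 462218 and 463893 normalized counts. No marker of these lists was at 0 in all libraries. The part of such cells in the changes of Cdkn2c, Cdkn2d and Rbl1 was not tested, and fewer cells of a type cannot be told apart from less RNA per cell in these bulk samples.

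Among genes known to be switched on by p53, the balance of directions depended on the scaling. Of 30 such genes 9 rose, 8 fell and 13 did not pass, with a median log2 fold change of 0.03, and the 17 that passed compare with a background of 57.1%. Under the endothelial scaling, which also moved all genes upwards, 23 were higher and 4 lower (median 0.29). The largest changes among those with at least 100 normalized counts were Pidd1, which encodes a death domain protein (log2 fold change 1.24, 2.37-fold), Ak1, an adenylate kinase (0.92), and Rrm2b, a ribonucleotide reductase subunit used in DNA repair, which fell (-0.58). Bax, the pore-forming protein of apoptosis, rose 1.28-fold, while Sesn1, a stress-induced regulator of growth signalling, and Fas, a death receptor, fell to 76.2% and 76.6% of sham. Ccng1, one of the most regular p53 targets, had 4310 and 3992 normalized counts in sham ECs and 4355 and 4205 after PNX and did not pass (adjusted p = 0.204). Bax, Sesn1, Fas and Ccng1 were chosen after their values were seen. Of 17 genes that act on p53, 4 rose and 8 fell (median -0.09), and under the endothelial scaling 10 were higher and 4 lower (median 0.17). For all 16208 genes tested, 29.3% rose and 27.8% fell (median 0.00), against 9625 and 1408 under the endothelial scaling (median 0.26). The checkpoint kinase genes Chek1 and Chek2 rose (log2 fold changes 2.36 and 1.12), and Trp73, which encodes the p53 relative p73, fell (-0.90).

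The partners and targets of the inhibitors mostly rose. Of 13 genes for cyclins, CDKs and Pcna, 9 rose and 2 fell, with a median log2 fold change of 0.58 (10 and 0 under the endothelial scaling, median 0.84). Among all 16208 genes tested, 29.3% rose and 27.8% fell, and under the endothelial scaling 9625 were higher and 1408 lower. Ccnd1, the D-type cyclin partner of CDK4 and CDK6, rose from 13730 and 13562 to 20505 and 20344 normalized counts (log2 fold change 0.58). Ccne1, the cyclin E that Cdkn1a and Cdkn1b products inhibit with CDK2, rose from 72.5 and 79.5 to 375 and 365 (log2 fold change 2.29). Cdk1 and Ccna2, the kinase and cyclin of S phase and mitosis, rose 10.6-fold and 6.30-fold. Cdk4 rose 1.45-fold, while Cdk6 did not pass (log2 fold change -0.15, adjusted p = 0.0469). Cdk4 and Cdk6 were chosen after their values were seen, as the kinases that INK4 proteins bind.

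Of 12 genes for the turnover of p27 and p21, 6 rose and 3 fell (median log2 fold change 0.06), against 11 and 0 under the endothelial scaling (median 0.32). Skp2, the F-box protein that recognises p27, rose from 182 and 171 to 397 and 371 normalized counts (log2 fold change 1.12). Its cofactor Cks1b rose 4.59-fold, Dtl, which targets p21 and other proteins bound to PCNA, 7.25-fold, and Fbxo5, an inhibitor of the anaphase-promoting complex, 2.75-fold. Of 17 E2F, DP and MuvB genes, with which pocket proteins work, 11 rose and 3 fell (median 0.73), against 14 and 0 under the endothelial scaling (median 0.99). E2f1, an activator that Rb1 product restrains, rose from 399 and 368 to 1029 and 996 normalized counts (log2 fold change 1.40). E2f7 and E2f8, the repressor E2Fs, and Foxm1, the factor of G2 and mitosis genes, had log2 fold changes of 2.51, 2.57 and 2.70. Of 10 other genes, mostly brakes of the cycle, 4 rose and 4 fell (median 0.03), against 7 and 1 under the endothelial scaling (median 0.29). Over all genes tested, 29.3% rose and 27.8% fell, and under the endothelial scaling 9625 were higher and 1408 lower. The list also holds Mdm4, which opposes p53 and is no brake. Those that fell were Mdm4, Btg2, Rbl2 and Tob1 (log2 fold changes -0.39, -0.26, -0.23 and -0.13). Those that rose include Wee1 (log2 fold change 1.15), the kinase that holds back Cdk1, and Gas1 (1.18), a growth arrest gene. Cdkn3, a phosphatase that acts on CDKs, rose from 38.0 and 30.6 to 454 and 374 normalized counts (log2 fold change 3.59).

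Factors that act on the Ink4a, Arf and Ink4b locus, where Cdkn2a and Cdkn2b lie, shifted with the scaling, as genes did in general. Of 22 genes 3 rose, 10 fell and 9 did not pass (median log2 fold change -0.05). The 13 that passed compare with a background of 57.1%. Under the endothelial scaling 14 were higher and 5 lower (median 0.21), against 9625 and 1408 of all 16208 genes tested. Ezh2, the Polycomb methyltransferase, rose 2.36-fold and Cbx2 1.47-fold, while Cbx7, a Polycomb protein known to repress the locus, fell to 49.1% of sham. Genes often read beside Cdkn1a and Cdkn2a as signs of senescence gave 14 higher and 2 lower of 18 (median 0.48). Over all genes tested, 29.3% were higher and 27.8% lower. Under the endothelial scaling 17 of the 18 were higher and 1 lower (median 0.74). Mmp12, an elastase of macrophages, rose 15.8-fold and the chemokine gene Cxcl1 8.08-fold. Lmnb1, which encodes lamin B1 and is known to be lost in senescent cells, rose 3.40-fold. It is among the 14 higher genes, so that count is not a measure of senescence.

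**Figure D4:**
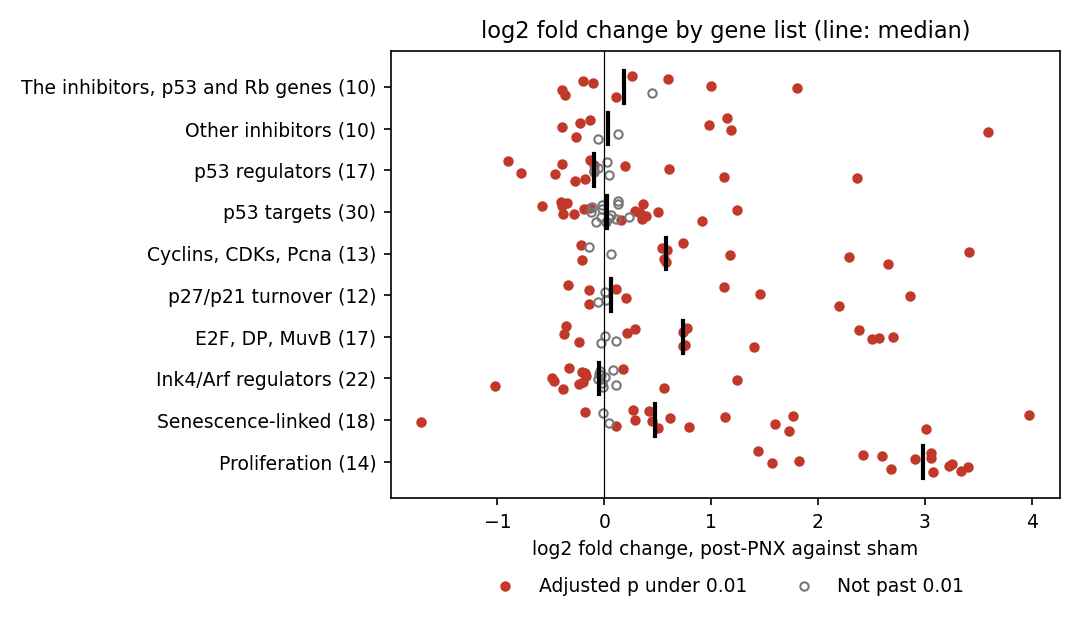
log2 fold change of every gene in the lists named in the text, apart from the cell type marker lists, which are not shown. Points are red where the adjusted p was under 0.01 and open where it was not, with a black line at the median of each list and the number of genes in parentheses. The p53 targets scatter around 0 (median 0.03), while the proliferation markers lie between 1.44 and 3.40.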

How the data were processed

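The authors deposited, for each of 4 libraries, unnormalized read counts on 33068 RefSeq transcripts, with FPKM and TPM values. Per the study's methods, libraries were strand-specific and read from both ends, and mm10 was the genome build. The submitters' processing notes name STAR, and the counting program is not given in the sources used here. Because a read was counted for every transcript it touched, the most counted transcript stood for each symbol. The deposited FPKM, scaled to the total over all transcripts, served only to compare levels between genes, and the deposited TPM was not used.

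The counts were fitted by edgeR 4.0.16 (R 4.3.3) after filterByExpr (16208 genes kept), with TMM factors from 0.9985 to 1.0026, and the quasi-likelihood F test without covariates, with Benjamini-Hochberg adjustment. The standard error is the log2 fold change divided by the square root of F. The steps were tested on simulated counts. DESeq2 1.42.0 gave an alternative test. The other alternatives were scalings, filters, a replicate block, sums over transcripts, thresholds and each library left out. A fixed floor of 3 counts was used, which is 2.72 to 3.34 normalized counts, and all 10 genes lay above it.

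The members and lists were chosen with earlier results of these data known. The genes named were all members, the 3 largest changes past the threshold in each list among genes whose mean reached 100 normalized counts, a few partners set by name, and the 3 genes most like the member that changed most. Adgre1 and Tigar were matched by RefSeq accession. Promoter windows were limited to the 250 bases before a start, and protein sequences were not used here.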

Additional observations from a re-analysis of the deposited data

How the results depend on the processing

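Each of the 10 genes was recomputed under 12 alternatives. Under DESeq2's size factors, library size alone, no filter on low counts, a filter at a mean of 50 counts, sums over transcripts and the replicate block, all 10 kept their direction and their side of the 0.01 threshold. The replicate numbers come from different mice and did not pair the libraries (correlation of deviations 0.030). With the replicate block 5 genes were higher and 4 lower, as without it, and over all genes 4824 were higher and 4617 lower.

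Scaling to the endothelial markers moved most: 0 of the 10 genes were then lower and 2 were higher past the fold threshold, and over all genes 9625 were higher and 1408 lower (main values 4745 and 4513), with 84 lower past the fold threshold. It turned Mdm2 (log2 fold change 0.16), Rb1 (0.062), Rbl2 (0.034), Coro1a (0.13) and Pecam1 (0.25). This scaling shifts all genes by about the same amount, and their median log2 fold change became 0.26 (0.00 in the main fit). Why the endothelial markers summed lower after PNX was not tested. Requiring a fold threshold left 1 higher and 0 lower gene of the 10, and 957 higher and 269 lower of all (831 and 180 with DESeq2's Wald test). Past that threshold, 2 of the 10 were higher with library size alone or the filter at 50 counts, and 1 to 2 with a library left out, because Cdkn2d lies at its edge. The filter at 50 counts, which tests fewer genes, left 160 lower past it. With 2 libraries per group, leaving out each library gave 3 to 4 lower genes of the 10, Mdm2 being the one lost, and 3852 to 4124 lower genes of all.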
